A study of Mus musculus with 8 samples.

Results

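The imprinted gene Peg3 and 9 further imprinted genes were followed across the cell clusters of a single-cell RNA-seq study of white preadipocyte browning. The list held Peg3, Mest, Dlk1, Plagl1, Ndn and Nnat, which are read mainly from the paternal copy, and H19, Meg3, Cdkn1c and Grb10, which are read mainly from the maternal copy in most tissues. A gene was described where the authors' table of cluster markers had an entry for it, in any cluster. Of the 10 genes, 6 had entries: Peg3 in 9 clusters, Meg3 in 4, H19, Ndn and Grb10 in 2 each, and Cdkn1c in 1. These 20 entries were among the 13337 of the table, which covers 3903 gene symbols and 12 clusters (0 to 11). Mest, Dlk1, Plagl1 and Nnat had no entry and are left out of the values. The genes were selected on entries of the table itself, so the detection values below are a description and carry no test.

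The study asked how loss of the nucleosome binding proteins HMGN1 and HMGN2 bears on the conversion of white preadipocytes into brown-like adipocytes. Preadipocytes came from the inguinal white fat of adult C57BL/6 mice that were either wild type (WT) or Hmgn1-/- and Hmgn2-/- (DKO), and were grown on collagen. Both genotypes were collected at day 0 and at day 6 of induction, with 2 samples in each of the 4 groups and 8 samples in all. Confluent cells were induced for 4 days with 1 μM rosiglitazone, 1 nM T3, 0.5 mM IBMX, 5 μM dexamethasone and 0.5 μg/ml insulin, then kept in T3 and insulin alone at the same amounts. The table pools the cells of all 8 samples and names no genotype, day or sample. The loss of Hmgn1 and Hmgn2 could not be checked in the DKO samples, the genotypes and days could not be compared, and no value has a replicate or an error.

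Imprinted genes are read mainly from 1 of their 2 parental copies, a choice tied to DNA methylation set in the egg or sperm. Many of them act on fetal growth, on stem and progenitor cells and on fat and insulin physiology. In the adipose lineage Dlk1, also called Pref-1, is a surface protein of preadipocytes that restrains adipogenesis, and Mest is known as a gene whose level follows fat mass expansion. Peg3 encodes a large zinc finger protein, H19 and Meg3 are long noncoding RNAs, and Cdkn1c and Ndn encode proteins that hold back cell division. The mice were of a single inbred strain, so the parental copies could not be told apart, and the values say nothing about imprinting itself.

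The sequences at the start of Peg3 and Meg3 are shown because both starts lie in regions known to be methylated differently on the parental copies, at CpG. For Peg3 this mark is set in the germ line, while at Meg3 it follows a germ line mark that lies upstream. Each window runs from 250 bases before to 50 bases after a RefSeq transcription start in build GRCm38.p6, which is the mm10 assembly the authors mapped to. The Peg3 window is chr7:6730370-6730669 on the minus strand, and the Meg3 window is chr12:109540746-109541045 on the plus strand. They are written 5′ to 3′ along the gene, with each CpG in capitals.
Peg3: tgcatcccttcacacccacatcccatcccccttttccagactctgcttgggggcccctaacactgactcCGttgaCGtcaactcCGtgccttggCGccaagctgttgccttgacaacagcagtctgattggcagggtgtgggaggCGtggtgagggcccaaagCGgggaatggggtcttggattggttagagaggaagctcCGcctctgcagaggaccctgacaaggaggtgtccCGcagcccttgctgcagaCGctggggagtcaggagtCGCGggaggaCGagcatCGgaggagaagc
Meg3: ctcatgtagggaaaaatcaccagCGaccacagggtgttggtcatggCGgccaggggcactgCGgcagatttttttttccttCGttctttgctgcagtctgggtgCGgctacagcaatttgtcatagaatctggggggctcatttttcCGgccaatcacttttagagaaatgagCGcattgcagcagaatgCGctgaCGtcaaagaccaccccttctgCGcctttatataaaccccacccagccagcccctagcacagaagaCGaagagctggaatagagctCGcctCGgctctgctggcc
Both windows held 13 CpG, a number reached by 37.9% of the 32851 windows of all genes. The CpG-rich extreme was the first start of Grb10, with 45 CpG, which 1.93% of windows reached. Windows were found for 8 of the 10 genes, 12 windows in all, and none for H19 or Cdkn1c. The Peg3 window also held GGGGCCCC, which reads the same on both strands and is known as a core of the sites bound by PLAGL1, the zinc finger protein encoded by the listed gene Plagl1. It began 201 bases before the start. These letters were in 1.08% of all windows and in 1 of the 12 windows of the listed genes. The core of the YY1 motif, GCCATNTT, known from repeats in the first intron of Peg3, was searched on both strands and was in none of the 12 windows, against 6.05% of all windows. Neither match nor absence says whether a factor was bound.

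H19 gives rise to miR-675, whose hairpin lies inside an exon of H19 at chr7:142577064-142577147 on the minus strand. Its mature RNAs are shown because they are the known product of the H19 transcript described here, with the seed (bases 2 to 8) in capitals. They are from RefSeq and were not measured by this assay.
mmu-miR-675-5p: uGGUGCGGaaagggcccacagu
mmu-miR-675-3p: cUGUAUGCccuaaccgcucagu
The 5p and 3p forms do not share a seed.

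The measure used throughout is detection, the percentage of cells with at least 1 count of a gene. The table gives it for the cells of a cluster and for all other cells. It mixes how many cells carry an RNA with how deeply each cell was read, and it is not a level per cell. Fewer expressing cells and less RNA per cell cannot be told apart with it. Detection was called higher or lower in a cluster where it differed from that in all other cells by at least 10 percentage points. Over the 20 entries of the imprinted genes, 6 were higher by this rule, 12 were lower and 2 lay between. Of all 13337 entries, 40.0% were higher and 37.4% were lower. The median difference was -13.4 points for the imprinted genes and 2.7 points over all entries. Peg3 alone gave 9 of the 20 entries, so these counts and the median of the imprinted genes rest in large part on it.

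Clusters also differed in how many of their entries were lower. In clusters 4 and 10 nearly every listed gene was detected in fewer cells than elsewhere, at 97.9% and 99.9% of their entries. Median detection over the entries was 10.8% inside cluster 4 and 8.1% inside cluster 10, against 63.0% and 62.3% in all other cells. Without these 2 clusters, 6 of the 15 remaining entries were higher and 8 were lower, against 50.4% and 22.4% of all remaining entries. Most of the lower entries of the imprinted genes thus lay outside these 2 clusters. The part of depth or RNA quality in the entries of these clusters was not tested. The plot of detection inside and outside each cluster shows all 20 entries.

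**Figure D1:**
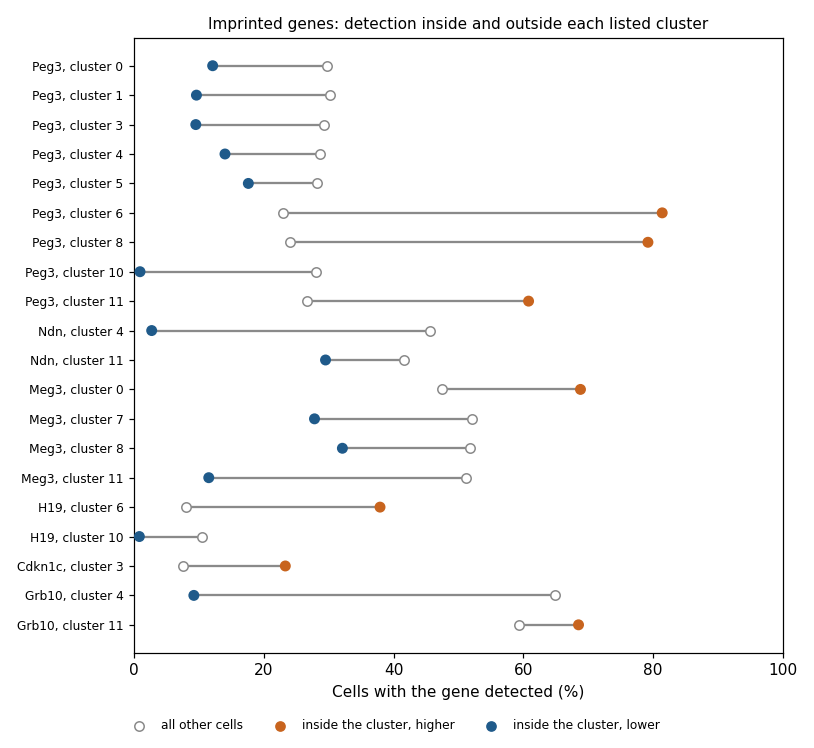
Percentage of cells in which each imprinted gene was detected, inside the named cluster (filled points, orange where higher and blue where lower) and in all other cells (open points), for all 20 entries with no replicates. Peg3 in clusters 6 and 8 has the widest rightward gaps (58.5 and 55.2 points), and Grb10 and Ndn in cluster 4 have the widest leftward gaps (-55.7 and -42.9 points).

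Peg3 (chr7:6703892-6730431, minus strand) had the most entries of the 10 genes and split the clusters widely. It was detected in 27.3% of all cells, a value that its 9 entries gave alike to within 27.21% and 27.29%. Detection reached 81.4%, 79.2% and 60.8% in clusters 6, 8 and 11, against 22.9%, 24.0% and 26.7% in all other cells. Among the clusters with lower detection, clusters 5, 4 and 0 stood at 17.6%, 14.0% and 12.1%, clusters 1 and 3 at 9.6% and 9.5%, and cluster 10 at 0.9%. For each of these 6 clusters in turn, all other cells stood between 28.1% and 30.2%, values that include the remaining lower clusters. Only clusters that passed the authors' minimum fold change are listed, so clusters without an entry are missing from this order. That minimum was set on expression and not on detection, so a missing entry does not place a cluster near the value of all cells. Between neighbours in this order, such as clusters 6 and 8 or clusters 1 and 3, no replicate spread is at hand to say whether they differ.

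Clusters 2, 7 and 9 had no Peg3 entry. Since detection over all cells is the sum over clusters of share times detection, their joint detection could be solved, and it was 34.9% over the 24.6% of cells they held. Their separate values are not fixed by this. The plot of Peg3 by cluster shows the 9 listed values and this joint value.

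**Figure D2:**
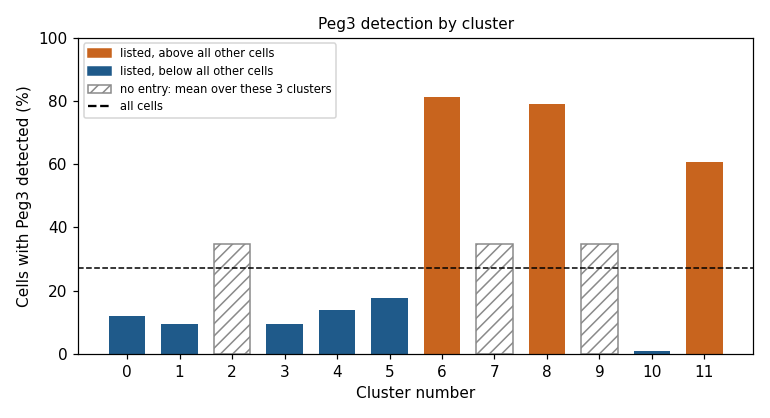
Percentage of cells with Peg3 detected (vertical axis) in each of the 12 clusters (horizontal axis), with no replicates. Bars are the listed clusters, orange above and blue below all other cells, hatched bars carry the joint value of 34.9% for the 3 clusters with no entry, and the dashed line is the 27.3% over all cells.

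The same values show where the cells with Peg3 lay. Cluster 6 held 7.5% of all cells and 22.3% of those with Peg3 detected, and cluster 8 held 5.9% and 17.2%. Cluster 11 was small, with 1.5% of all cells and 3.3% of the Peg3-detected cells. Together these 3 clusters held 14.9% of cells and 42.8% of the Peg3-detected cells. The 6 clusters with lower detection held 60.5% of cells and 25.7% of the Peg3-detected cells, with a joint detection of 11.6%. The 3 clusters without an entry held the remaining 31.5%.

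**Figure D3:**
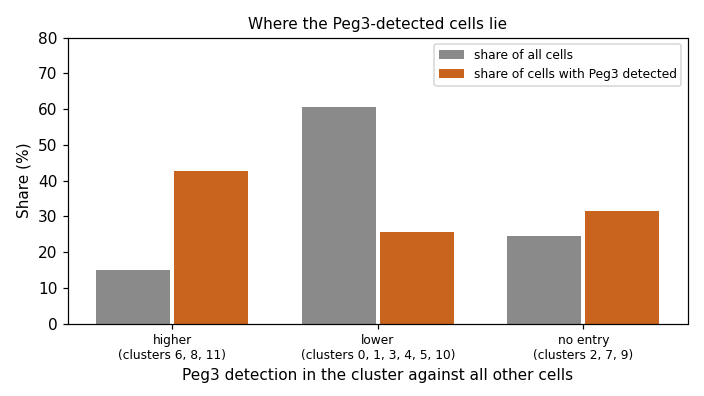
Share of all cells (grey) and share of the cells with Peg3 detected (orange), in percent, for the clusters with higher, lower and no listed Peg3 detection. The 3 higher clusters hold 14.9% of all cells but 42.8% of the Peg3-detected cells, and the 6 lower clusters hold 60.5% and 25.7%.

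Against the other entries of the same cluster, the Peg3 difference stood out most in cluster 8. It ranked 5 of 1126 entries there by difference in detection, in a cluster in which 26.2% of entries were higher by at least 10 points and 45.6% were lower. In cluster 6 it ranked 29 of 1416, with 51.9% of entries higher. In cluster 11 it ranked 650 of 2487, with 44.4% of entries higher and 28.7% lower. In cluster 10, in which 98.5% of entries were lower by at least 10 points, the ratio of Peg3 detection inside to outside was 0.032, and 1.95% of the entries of that cluster had a smaller ratio. In cluster 4, with 92.8% of entries lower, the Peg3 ratio was 0.488, and 84.4% of entries had a smaller one. Peg3 was thus lower by a smaller factor than most listed genes in cluster 4, and by a larger factor than most in cluster 10. By difference it ranked 224 of 2072 in cluster 4 and 100 of 718 in cluster 10, so it fell by fewer points than most in both. For cluster 10 the ratio and the difference thus disagree, and the ratio rests on a detection of 0.9% inside.

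The 3 clusters with high Peg3 detection shared markers of differentiating fat cells and differed in markers of division. Detection of Plin1, which encodes a protein coating the lipid droplet, was 45.5%, 50.6% and 99.8% in clusters 6, 8 and 11, against 13.3%, 13.5% and 14.4% in all other cells. Of the 7 adipocyte markers (Adipoq, Plin1, Cidec, Fabp4, Lpl, Cd36 and Car3), clusters 6 and 8 had 4 each at higher detection and cluster 11 had 6, and none was lower in these clusters. All 5 proliferation markers were higher in cluster 6 and lower in cluster 8, with Mki67, a protein of dividing cells, detected in 92.0% and 6.9% of cells. High Peg3 detection was thus found both with and without the markers of division.

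Neither set of markers went with Peg3 throughout. Adipocyte markers were also higher in cluster 4, at 5 of 7, where Peg3 was at 14.0%, though cluster 4 was low in detection of most listed genes. The 5 proliferation markers were also higher in cluster 5, where Peg3 was at 17.6%. Clusters 2 and 9 cannot be placed in this way, since Peg3 had no entry there and only the joint 34.9% with cluster 7 is known. Cluster 2 had 5 of 7 adipocyte markers higher, and cluster 9 all 5 proliferation markers. In clusters 0, 1 and 3, the largest of the clusters low in Peg3, 5 of the 7 adipocyte markers and all 5 proliferation markers were lower. Of 6 preadipocyte markers, 2, 3 and 2 were higher there and none was lower, with F3 detected in 95.7%, 99.1% and 96.4% of cells. Of markers of other cells that such cultures could hold, the 3 immune, 3 endothelial, 3 glial and 3 skeletal muscle genes had no entry. The authors had removed immune, glial and endothelial cells before the clusters were made. Of the smooth muscle and pericyte genes, Acta2 alone had entries, and it was lower in the 3 clusters high in Peg3 (23.2%, 5.4% and 6.7%). Low Acta2 was not particular to them, since it was also lower in clusters 2 and 4 (11.6% and 4.2%). In clusters 0, 1, 3, 5 and 9 Acta2 was higher. The part of cell type, cell cycle or depth in the Peg3 pattern was not tested.

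The genes whose detection followed that of Peg3 most closely were found among the 129 genes listed in at least 8 of its 9 clusters. Pearson's r was computed across those clusters as a description, since the points share all libraries and the depth of each cluster. The 5 highest were Ifi207 (r = 0.97 over 8 clusters), Zbtb16 (0.97 over 9), mt-Nd6 (0.96 over 9), A2m (0.93 over 8) and Rgcc (0.93 over 8). Zbtb16 encodes a zinc finger transcription factor, A2m a secreted protease inhibitor and mt-Nd6 a mitochondrial subunit of respiratory complex I. All 5 were detected in more cells of clusters 6 and 11 than of clusters 0, 4, 5 and 10. Zbtb16 was sharper than Peg3 in this respect, at 54.9%, 60.2% and 59.7% in clusters 6, 8 and 11 and at most 8.0% in the other 6 clusters with a Peg3 entry. Leaving out clusters 4 and 10, a choice made after the data had been seen, gave r between 0.92 and 0.99 for these genes.

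**Figure D4:**
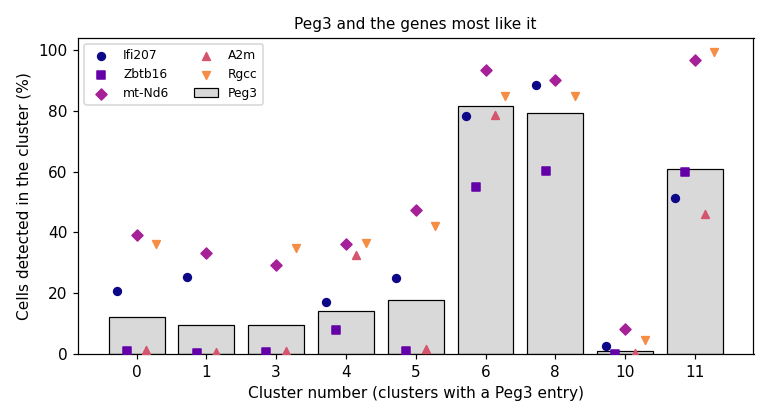
Percentage of cells detected in each cluster with a Peg3 entry, for Peg3 (grey bars) and the 5 genes with the most similar pattern (points, shown where the table lists the gene for that cluster), with no replicates. All 6 genes are high in cluster 6, at 54.9% to 93.3%, and low in cluster 10, at 0.1% to 8.1%.

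The partner of Peg3 at its locus was not listed. Usp29 lies head to head with Peg3, 0.1 kb away on the opposite strand, and neither it nor Zim1, on the other side of Peg3, had an entry. Peg10 is a gene of similar name but of another locus, on chromosome 6, and encodes a retrotransposon-derived protein. It had an entry in cluster 6 alone, at 28.2% against 9.9% in all other cells.

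Ndn (chr7:62346569-62350262, plus strand), which encodes necdin, a growth suppressor of the MAGE family, was lower in both of its clusters. Cluster 4 had Ndn in 2.7% of cells against 45.6% elsewhere, and cluster 11 in 29.5% against 41.6%. In cluster 4 the ratio was 0.0592, and 10.3% of the entries of that cluster had a smaller one. In the 10 clusters with no entry, Ndn was detected in 45.8% of cells, and in 41.5% of all cells. In cluster 11 its difference of -12.1 points ranked 1846 of 2487, in a cluster with 28.7% of entries lower, and it did not reach the stricter minimums of 20 points or a log2 odds ratio of -1. The Ndn neighbours Magel2, Mkrn3, Peg12, Snrpn and Snurf had no entry, and Ube3a was higher in cluster 11 (94.8% against 71.0%) and lower in cluster 10 (6.9% against 73.5%).

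Meg3 (chr12:109541001-109571726, plus strand), a maternally read noncoding RNA, was higher in 1 cluster and lower in 3. Detection was 68.8% in cluster 0 against 47.4% elsewhere. That difference ranked 237 of the 694 entries of cluster 0, of which 21.5% were lower inside, so higher detection was common there. The lower values were 27.8% against 52.1% in cluster 7, 32.1% against 51.7% in cluster 8, and 11.5% against 51.1% in cluster 11. Peg3 stood at 12.1% in cluster 0, 79.2% in cluster 8 and 60.8% in cluster 11. Meg3 had no entry in cluster 6, where Peg3 was highest, nor in clusters 1, 3, 4, 5 and 10, so of the 6 clusters low in Peg3 only cluster 0 listed Meg3. Over all cells Meg3 was detected in 50.5%, and in the 8 clusters without an entry in 51.3%. Its difference ranked 535 of 540 entries in cluster 7 and 2396 of 2487 in cluster 11, near the low end of both. In cluster 8, where 45.6% of entries were lower, it ranked 849 of 1126.

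Rian, a second maternally read noncoding RNA that lies 32.2 kb downstream of Meg3 on the same strand, had entries in the same 4 clusters and in the same directions. In cluster 0 Rian was at 44.7% against 24.3% elsewhere, and its difference ranked 264 of 694 entries. Clusters 7 and 8 were close, at 12.7% and 13.2% against 28.2% and 28.1% elsewhere, and cluster 11 was at 4.9% against 27.6%. For both genes cluster 0 was the highest of the 4 and cluster 11 the lowest. Of the other genes of this imprinted region, Dlk1, Rtl1, Mirg, Dio3 and Begain had no entry. An entry required a minimum detection on 1 side of the comparison, which was never under 10.1% in the table, and, per the study's methods, a minimum fold change, so a gene with no entry may still have been detected.

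**Figure D5:**
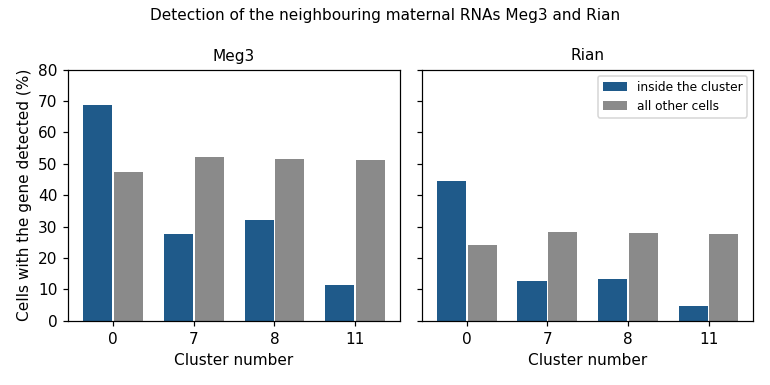
Percentage of cells with Meg3 (left) and Rian (right) detected inside each cluster that lists them (blue) and in all other cells (grey), with no replicates. Both genes are higher in cluster 0 (68.8% and 44.7%) and lower in clusters 7, 8 and 11, and lowest in cluster 11 (11.5% and 4.9%).

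H19 (chr7:142575529-142578143, minus strand), the noncoding host of miR-675, was higher in cluster 6. Its detection there was 37.9% against 8.0% elsewhere, and it ranked 476 of 1416 entries there by difference. Cluster 6 held 27.7% of the H19-detected cells and 7.5% of all cells. In cluster 10 its detection was 0.8% against 10.5%, a difference of -9.7 points that fell just short of the 10-point rule. In the 10 clusters without an entry H19 was detected in 8.2% of cells, and in 10.2% of all cells. Of all entries of cluster 6, 51.9% were higher by the same rule, and Peg10 ranked 627 there. The 5 proliferation markers and 4 adipocyte markers were also higher in that cluster, and their part in the H19 value was not tested. Igf2, the paternally read growth factor gene 72.6 kb from H19, had no entry.

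Cdkn1c (chr7:143458339-143461050, minus strand), an inhibitor of cyclin-dependent kinases, had 1 entry, in cluster 3. Its detection was 23.3% there against 7.5% elsewhere, and the difference ranked 108 of 427 entries of cluster 3. By the ratio of inside to outside, which favours genes of low detection, 98.6% of those entries were smaller. Cluster 3 held 26.5% of the Cdkn1c-detected cells and 10.4% of all cells. All 5 proliferation markers were lower in this cluster, with Mki67 at 2.3% against 25.3%, and Mmp3, a matrix protease of preadipocytes, was higher at 76.2% against 45.7%. Peg3 was at 9.5% in the same cluster.

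The non-imprinted inhibitors of cyclin-dependent kinases were listed for other clusters. Of 6 examined, 4 had entries, with 6 of their 11 entries higher and 4 lower, and none in cluster 3. Cluster 3 had the fewest entries of all clusters, 427 of 13337, so an absence from it says little about these genes. Of all entries, 40.0% were higher and 37.4% lower, and in cluster 6, which held 3 of the 11, 51.9% were higher. Cdkn1b was at 76.8% against 46.8% in cluster 6, and Cdkn2c at 93.9% against 27.3% in cluster 11. Cdkn2d was higher in the 3 clusters of dividing cells, 5, 6 and 9, at 55.8%, 58.8% and 65.6%. Cdkn2a and Cdkn2b had no entry.

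Kcnq1ot1, the paternally read antisense RNA of the imprinted domain that holds Cdkn1c, followed another course. Its gene lies 161.8 kb from Cdkn1c and was listed for 8 clusters. Detection was higher in clusters 2, 6, 8 and 11, at 80.2%, 86.3%, 84.9% and 88.7%, and lower in clusters 1, 4 and 10, at 43.4%, 29.3% and 4.6%. In cluster 5 it differed by 6.7 points. Clusters 6, 8 and 11 were thus high in both Kcnq1ot1 and Peg3. Phlda2 and Slc22a18, of the same domain, had no entry.

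Grb10 (chr11:11930508-12038683, minus strand) encodes an adaptor protein that dampens signalling from the insulin and IGF1 receptors. Of all cells 59.5% had it detected, and its single lower entry was cluster 4, at 9.2% against 64.9% elsewhere. The ratio of 0.142 lay in the middle range for cluster 4, where 41.5% of entries had a smaller one. In cluster 11 Grb10 was at 68.5% against 59.4%, a difference of 9.1 points that was not called. The 10 clusters without an entry had a joint detection of 64.8%.

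Of 7 other genes of insulin and IGF signalling, 6 had entries. Of their 17 entries 6 were higher and 8 lower, against 40.0% and 37.4% of all entries. In cluster 11, which was richest in adipocyte markers, the insulin receptor gene Insr was at 68.9% against 24.0%, Irs1 at 48.4% against 8.8% and Irs2 at 82.7% against 25.6%, while Igf1r was lower at 25.0% against 54.0%. Irs2, an adaptor downstream of the receptor, was also higher in clusters 6 and 8, at 59.3% and 60.3%, where Peg3 was at 81.4% and 79.2%. Grb14, a relative of Grb10, was lower in clusters 2, 6 and 8, at 1.6%, 2.1% and 0.9%. Grb7 had no entry.

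Of 41 other imprinted genes, 10 had entries, and their 46 entries held 14 higher and 13 lower by at least 10 points, with a median difference of 6.4 points. Over the whole set of entries 40.0% were higher and 37.4% lower, with a median of 2.7 points. Several of them are imprinted in few tissues only, such as Dcn and Cd81 in placenta and Ube3a in neurons. Gnas was near its ceiling, at 98.6% or more in 9 clusters, and at 50.3% in cluster 4. Mcts2 was at 66.2% against 22.9% in cluster 11, but it lies within H13 on the same strand and reads of the pair may be hard to assign. H13 itself was at 65.5% against 62.9% there. Igf2r was at 37.4% against 42.4% in cluster 11. Within cluster 11 Peg3, Kcnq1ot1, Ube3a and Mcts2 were higher, while Meg3, Rian, Ndn and Dcn were lower. Grb10, Igf2r, H13, Gnas and Cd81 differed there by less than 10 points. Of all entries of cluster 11, 44.4% were higher and 28.7% lower, so a mix of directions was not particular to the imprinted genes.

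Dlk1, the preadipocyte gene of the list, acts as an antagonist of Notch receptors. Neither it nor any of the 5 genes Notch1, Notch2, Notch3, Notch4 and Dlk2 had an entry in any cluster. Mest, Plagl1 and Nnat were likewise without one. Whether these genes were undetected, detected in too few cells for an entry, or detected alike in all clusters cannot be told from the table.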

How the data were processed

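Single-cell 3′ RNA libraries of 8 samples were summarized in 1 table. Per the study's methods and the submitters' processing notes, the authors mapped reads to mm10 with Cell Ranger 6.0.0, combined the samples at equalized depth, filtered cells, removed immune, glial and endothelial cells, clustered the rest in Seurat and compared each cluster with all other cells, listing genes above a minimum detection and fold change. For each entry they deposited the fraction of cells in the cluster, and the fraction of all other cells, with the gene detected (to 3 decimals, used here as percentages). Their fold changes, p-values and adjusted p-values come from their own comparison and were not used. No doublet removal is described, and none was possible here.

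The imprinted genes and the other lists were chosen with earlier results of these data known. Groups and replicate numbers were read from the sample titles, but no column or row names a sample. The number of unused columns of values per sample is 0. Cell numbers and depth are unknown, so no interval, SD or test is given.

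The shares of the 12 clusters were solved by least squares from the 10 genes listed for every cluster, since share-weighted detection must give 1 value over all cells whichever cluster it is taken from. They summed to 99.9%. The method was tested on simulated data. All listed genes were named, with the 5 genes most like Peg3 by Pearson's r over at least 8 shared clusters. The alternatives were other shares, other thresholds (5 and 20 points, and a log2 odds ratio of 1), other rankings of clusters, and leaving out the clusters in which over 90% of entries were lower. Gene positions are from GENCODE on GRCm38, and sequences from RefSeq. Python 3.11.15 with numpy, pandas, scipy and matplotlib was used.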

Additional observations from a re-analysis of the deposited data

How the results depend on the processing

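With shares solved from the 2692 genes listed for at least 2 clusters, detection in the clusters without an entry moved by at most 0.15 points, for Peg3 from 34.9% to 34.7%. Detection over all cells moved by at most 0.034 points, also with the largest listed cluster alone. Ranking by detection inside the cluster or by log2 odds ratio left Peg3 and Meg3 in their clusters. For the other genes, with 1 or 2 entries, this ranking could hardly change. With a minimum of 20 points in place of 10, the count of lower entries went from 12 to 6. The other counts stayed within 1.5 times the reported ones. Against Peg3, a choice made after the data were seen, Spearman's rho was 0.81 for Ifi207, whose Pearson's r was 0.97. No paired analysis was possible because no entry names a sample. Depth and cell number are unknown, so a missing entry and a low value cannot be weighed, and no difference between clusters has an error.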
